A study of Mus musculus with 6 samples.

Results

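The genes described here are 37 genes of the endoplasmic reticulum (ER) that code for luminal chaperones and folding enzymes, for parts of the translocon and of ER-associated degradation, and for sensors of the unfolded protein response. They were listed by name, and the rule used no measured values, but earlier results of these data were known when the list was made. They are of interest because 2APB acts on calcium release from the ER and on refilling of its store. All 37 were present among the 18512 entries of the count table, and 36 of them were among the 13353 entries tested, whose normalized counts averaged 20 or more. The gene left out was Derl3, a derlin, with 5.84 to 15.8 normalized counts per library. Normalized counts are the deposited counts scaled to the mean library with TMM factors.

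The cells were NMuMG, an epithelial line from mouse mammary gland. They were serum-starved and treated for 24 h with DMSO as the vehicle, with 5 ng/ml TGF-β, or with the same dose of TGF-β plus 50 uM 2APB, and 2 libraries were sequenced in each of the 3 groups. TGF-β is a cytokine that drives the epithelial to mesenchymal transition in this line, and 2APB is an inhibitor of IP3 receptors and a modulator of store-operated calcium entry. Whether 2APB came before or together with TGF-β could not be settled. There was no group with 2APB alone, so a difference between TGF-β+2APB and TGF-β is a difference in the presence of TGF-β.

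Proteins that enter the secretory pathway are threaded into the ER through the Sec61 translocon, bound by chaperones such as BiP (the product of Hspa5), fitted with disulfide bonds by isomerases and released when folded. Proteins that fail are pulled back to the cytosol and degraded. The luminal chaperones calreticulin, GRP94 and BiP also bind calcium, and a drop of luminal calcium is a classic trigger of the unfolded protein response. That response is signalled by IRE1 (Ern1), PERK (Eif2ak3) and ATF6, and their transcription factors act on short promoter elements, the ER stress element (ERSE) and its relatives.

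Promoter windows show which of the genes carry such an element, and are printed because the members could be divided by it without use of the counts. Windows from 250 bases before to 50 bases after the start came from RefSeq on GRCm38.p6, and 32 of the 37 genes were matched. Hyou1, Manf, Derl1, Sec61a1 and Atf6 were not matched. The ERSE, spelled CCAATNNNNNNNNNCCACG and searched on both strands, was found in 10 of these 32 genes (31.2%), and in 37 of all 27025 genes with a window (0.137%). The 10 were Hspa5, Hsp90b1, Dnajc3, Creld2, Calr, Canx, Pdia6, Ero1lb, Syvn1 and Derl3. The ERSE-II, spelled ATTGGNCCACG, was found in Herpud1 and Dnajb11 and in 12 genes in all (0.0444%). The 8 letters TGACGTGG, the core of the unfolded protein response element, were found in Txndc5 and Txndc11 and in 193 genes in all (0.714%). A match is a match of letters and not evidence of binding. Lack of a match means only that these exact letters were not in the window, and near matches or more distant elements were not searched. The sequences below are from Herpud1 and from those genes with an ERSE that had the highest counts. P4hb and Pdia3 had higher counts but no ERSE in their windows. The sequences are read in the direction of the gene. Capitals mark the element, which reads as its reverse complement where it lies on the other strand.
Hspa5, chr2:34772020-34772048, plus strand: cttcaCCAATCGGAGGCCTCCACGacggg
Hsp90b1, distal, chr10:86705618-86705676, minus strand: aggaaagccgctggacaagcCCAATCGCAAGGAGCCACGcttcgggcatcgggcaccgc
Hsp90b1, proximal, chr10:86705513-86705571, minus strand: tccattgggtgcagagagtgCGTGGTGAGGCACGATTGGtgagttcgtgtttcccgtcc
Calr, chr8:84847055-84847113, minus strand: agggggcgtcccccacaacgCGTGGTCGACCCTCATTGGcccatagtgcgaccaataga
Canx, chr11:50325780-50325838, minus strand: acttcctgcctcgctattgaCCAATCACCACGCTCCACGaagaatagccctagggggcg
Pdia6, chr12:17266471-17266529, plus strand: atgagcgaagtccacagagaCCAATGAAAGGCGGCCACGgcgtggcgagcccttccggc
Herpud1, ERSE-II, chr8:94386357-94386407, plus strand: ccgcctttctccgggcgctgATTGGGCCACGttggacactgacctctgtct
The element of Hspa5 lay 65 to 47 bases upstream of the start and that of Herpud1 52 to 42 bases upstream, while Dnajb11 had its ERSE-II just downstream of the start.

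**Figure D1:**
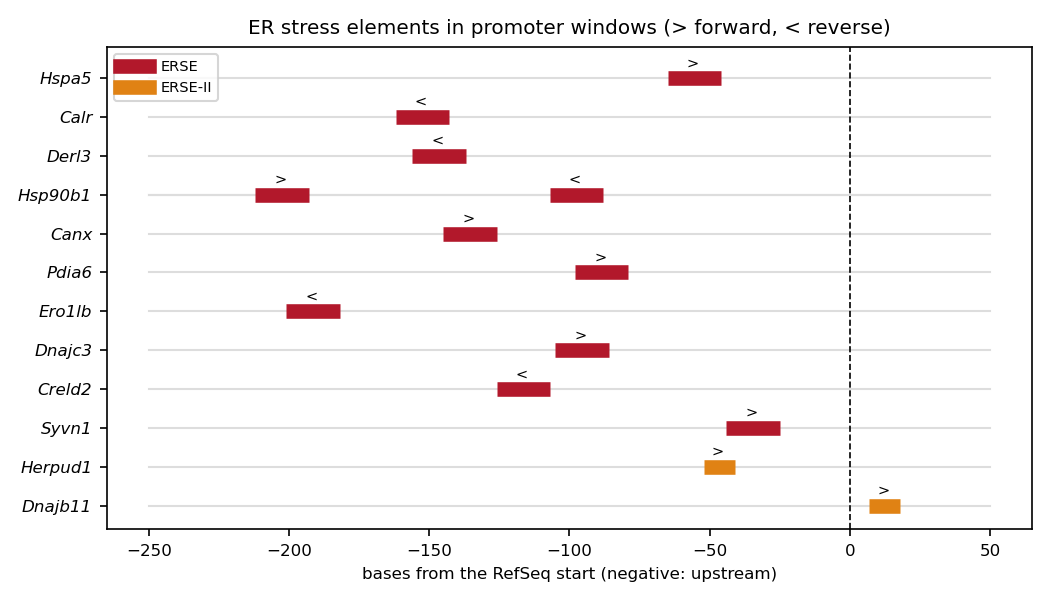
Positions of the ERSE (red) and ERSE-II (orange) in the promoter windows of the 12 genes that held one, in bases from the RefSeq start on the horizontal axis, with the direction of the element marked above it. Hsp90b1 held 2 elements, and the element of Dnajb11 was the only one drawn downstream of the start.

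Total counts per library ran from 71840570 to 79473182. Every deposited value was even, so the number of reads behind a value may be lower by a factor of 2. The 37 genes together took 0.693% and 0.701% of all counts under DMSO, 0.723% and 0.704% under TGF-β, and 0.646% and 0.654% under TGF-β+2APB. Replicates of these genes lay closest together in DMSO, where the median absolute log2 difference between replicates was 0.04, against 0.17 with TGF-β and 0.05 with TGF-β+2APB, and the TGF-β libraries stood apart most for Hsp90b1, with a log2 difference of 0.54. All 6 epithelial markers and all 4 mesenchymal markers were above 0 in every library. The 9 markers of other cell types that were present summed to 44566 and 49409 normalized counts with DMSO, nearly all from Alb (28821 and 31570) and Ttr (15245 and 17200), against 315 and 487 in the TGF-β libraries and 400 and 2405 in the TGF-β+2APB libraries. In the last library, TGF-β+2APB replicate 2, the leukocyte markers Csf1r, Ptprc and Cd68 stood at 969, 742 and 620. Kdr was at 0 in 5 of the 6 libraries, and Cdh5 and Adipoq at 0 in some. The part of these markers in the results below was not tested. In bulk RNA, fewer cells that express a gene and less RNA per cell cannot be told apart.

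**Figure D2:**
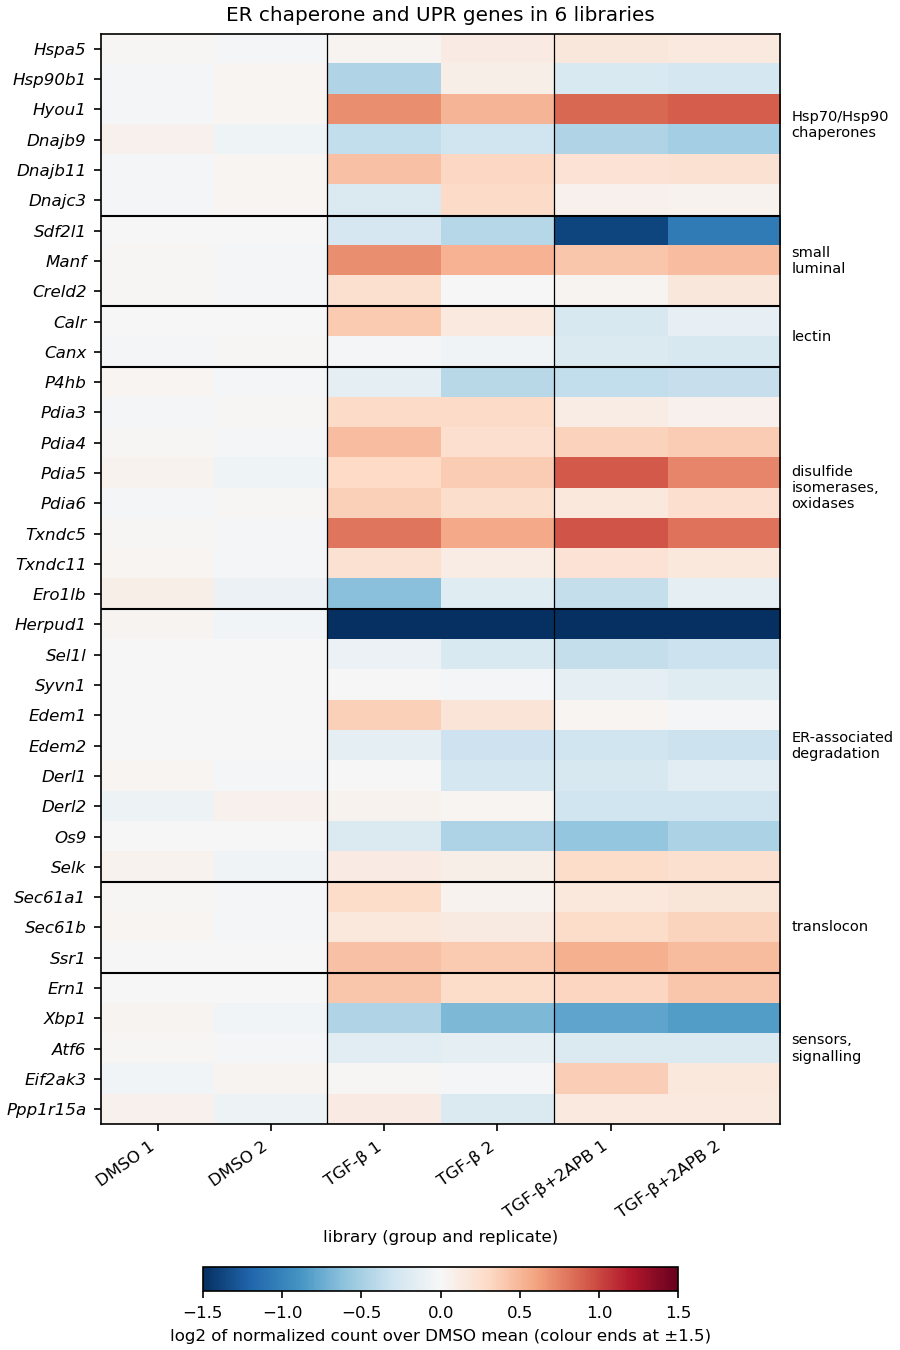
Log2 of the normalized count over the DMSO mean (colour, ending at ±1.5) for the 36 tested genes (rows, grouped by role) in the 6 libraries (columns). Herpud1 was the darkest blue in all 4 treated libraries, Sdf2l1 was darkest with TGF-β+2APB, and Hyou1 and Txndc5 were red in all 4.

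With no treatment but DMSO, the most abundant transcripts per kilobase of exon were those of the disulfide isomerases P4hb (26249 normalized counts per kb ± 691 (SD, n = 2)) and Pdia3 (19944 ± 261), followed by the calcium-binding chaperones Calr (14947 ± 72.0) and Hsp90b1 (11175 ± 369), the lectin chaperone Canx (9809 ± 125) and Hspa5 (8511 ± 110). Each of these 6 levels differed from its neighbours in the order by more than their SDs. The lowest of the tested genes was the oxidase Ero1lb at 50.6 ± 4.42 per kb, and Derl3 stood at 3.03 ± 0.107. With TGF-β, P4hb stood at 21832 ± 3023 per kb and Pdia3 at 24323 ± 38.7, a difference smaller than the SD of P4hb.

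TGF-β against DMSO asks how these genes stand after 24 h of TGF-β. At an FDR of 0.05 or less in edgeR's quasi-likelihood test, 14 of the 36 tested genes were called, beside 41.5% of all tested entries. Of the 14, 10 were higher, beside 21.8% of all entries, and 4 were lower, beside 19.7%. The median log2 fold change of the 36 genes was 0.07, against -0.01 for all entries. The genes that rose were mostly folding enzymes and chaperones (Txndc5, Manf, Hyou1, Dnajb11, Pdia4, Pdia6 and Pdia3), with the translocon partner Ssr1, the sensor Ern1 and the mannosidase-like Edem1. The genes that fell were Herpud1, Xbp1, Dnajb9 and Os9.

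TGF-β+2APB against DMSO gave 20 called genes, beside 52.8% of all entries. There 9 were higher, beside 25.6%, and 11 were lower, beside 27.2%, and the median log2 fold change was 0.07. Both comparisons used the same DMSO libraries, so their calls are not independent, and calls in the same direction were likely for any genes. The joint counts that follow have no share of all entries beside them and describe these genes only. Of the 36 genes, 6 were higher in both (Hyou1, Manf, Pdia4, Txndc5, Ssr1 and Ern1), 4 were lower in both (Dnajb9, Herpud1, Os9 and Xbp1), none was called in opposite directions, and 12 were called in neither. Among those 12 were Hspa5 and Hsp90b1, the best known targets of the response.

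TGF-β+2APB against TGF-β bears on the addition of 2APB. Only 4 of the 36 genes were called, beside 17.5% of all entries. Pdia5 alone was higher, beside 6.58% of all entries, and Sdf2l1, Calr and Derl2 were lower, beside 10.9%. The median log2 fold change of the 36 genes was -0.08. When libraries were scaled by size alone, 1 gene was higher and 6 were lower, beside 20.1% of all entries called in either direction. The fold changes of these 4 genes kept their direction in all 6 fits with a library left out, and ran from -1.04 to -0.75 for Sdf2l1, from -0.57 to -0.32 for Calr, from -0.37 to -0.32 for Derl2 and from 0.36 to 0.58 for Pdia5. The number of calls depended on the libraries fitted, the DMSO libraries included. These enter this comparison through the estimate of the spread, the scaling factors and the count filter. In edgeR, fewer of these genes were called without either DMSO library or either TGF-β+2APB library, and more without either TGF-β library. The share of all entries called moved the same way in these fits. DESeq2 called 9 with all libraries, beside 27.7% of all entries without prior. In the other comparisons the number of calls also changed with the library left out. It was smallest without DMSO replicate 1 in both, among these genes and among all entries. The calls that held in all 6 fits with a library left out were those of Hyou1, Manf, Txndc5 and Herpud1 for TGF-β, and of Hyou1, Dnajb9, Sdf2l1, Pdia5, Txndc5, Herpud1, Ssr1 and Xbp1 for TGF-β+2APB against DMSO.

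**Figure D3:**
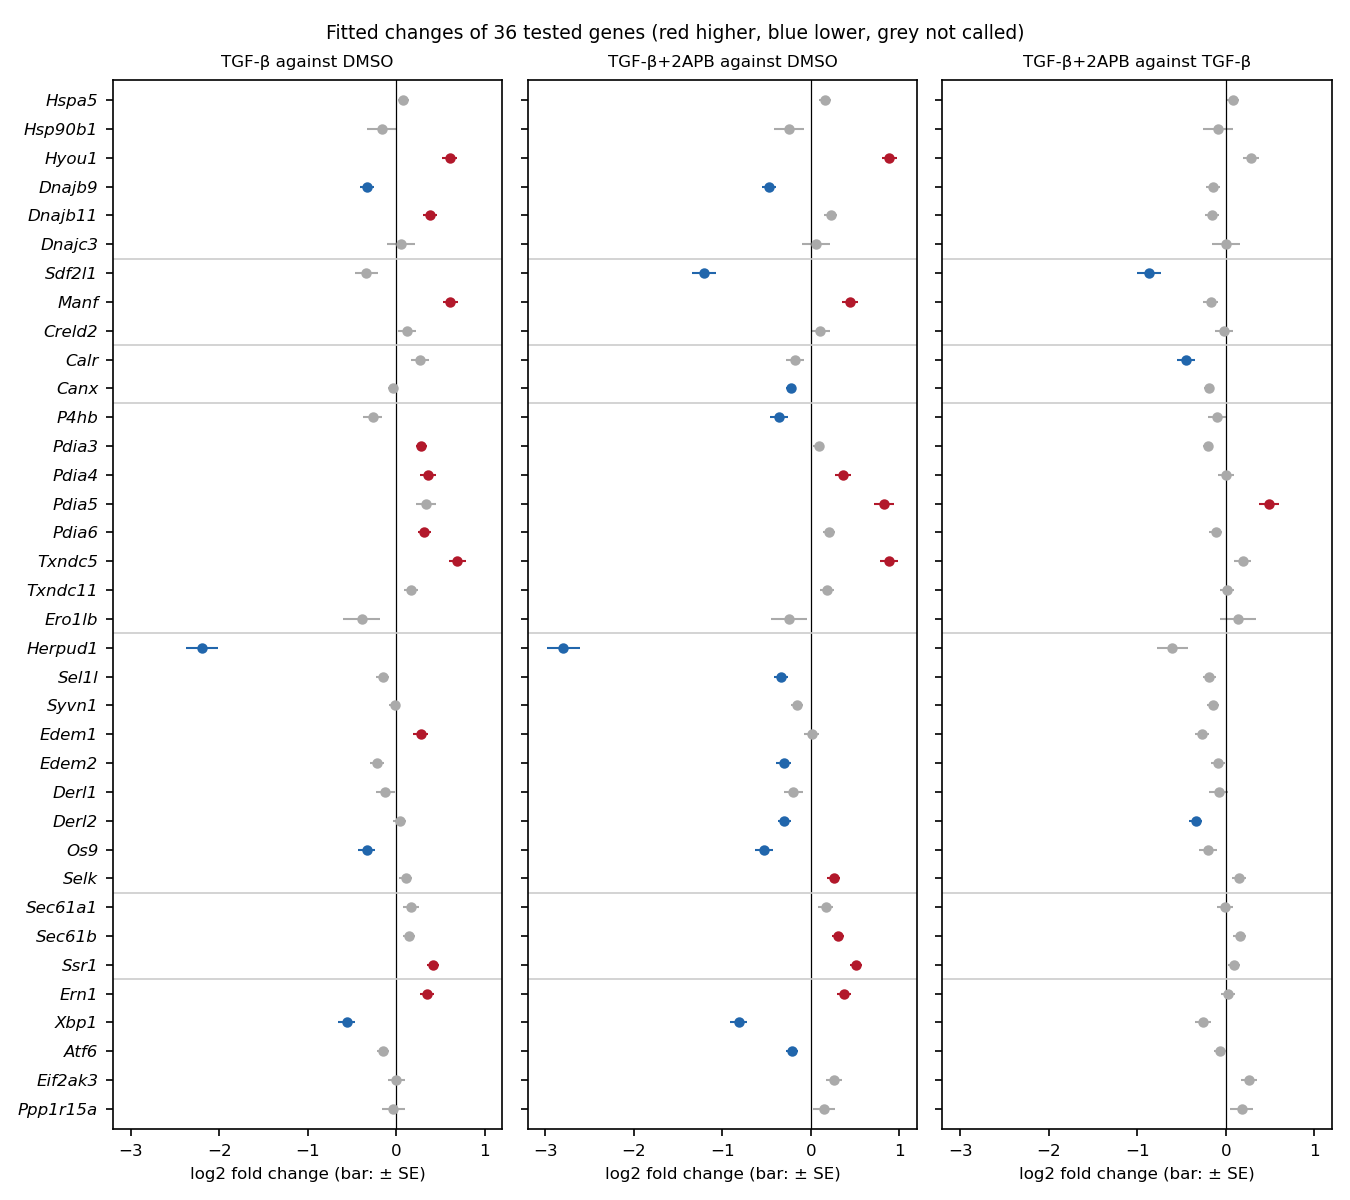
Fitted log2 fold change with its SE (horizontal axis) of the 36 tested genes (vertical axis, in the same order and groups by role) in the 3 comparisons, with called genes in red (higher) and blue (lower). Most changes lay within 1 log2 unit of 0, and Herpud1 with DMSO as the reference lay beyond -2.

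Among the Hsp70 and Hsp90 class chaperones, the central chaperone was nearly level and one of its partners rose. Hspa5, which codes for BiP, stood at 36319 and 35664 normalized counts under DMSO, 37020 and 39082 under TGF-β, and 40612 and 39823 under TGF-β+2APB. The groups did not overlap, but the changes were small, with a log2 fold change of 0.08 ± 0.06 (SE, FDR = 0.362) for TGF-β and of 0.16 ± 0.06 (FDR = 0.0832) for TGF-β+2APB against DMSO. The 95% interval of the difference between TGF-β+2APB and TGF-β ran from -0.08 to 0.24. The call for TGF-β+2APB depended on the test, since DESeq2 (adjusted p = 0.0145) and the fit of the 4 libraries compared (FDR = 0.0113) called Hspa5 higher.

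Hyou1, a large Hsp70 relative that acts as a nucleotide exchange factor for BiP, stood at 8815 and 9221 under DMSO, 14627 and 12789 under TGF-β, and 16373 and 16984 under TGF-β+2APB. Every treated library was above both DMSO libraries, and both TGF-β+2APB libraries were above both with TGF-β. It rose 1.52-fold with TGF-β (log2 0.60 ± 0.09, FDR = 0.00371) and 1.85-fold with TGF-β+2APB (log2 0.89 ± 0.09, FDR = 0.000616), and these calls held in all 6 fits that left out 1 library. The further difference of 0.28 ± 0.09 between the treated groups was not called (FDR = 0.0839).

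Hsp90b1, which codes for GRP94, stood at 44006 and 46107 under DMSO, 32871 and 47791 under TGF-β, and 38495 and 37430 under TGF-β+2APB. The TGF-β libraries lay on either side of all the others, so TGF-β overlapped with both other groups (-0.16 ± 0.17, FDR = 0.497 against DMSO). Both TGF-β+2APB libraries were below both DMSO libraries, and the change of -0.25 ± 0.17 was not called (FDR = 0.275), but it was in the fit of the 4 libraries compared (FDR = 0.00442) and without TGF-β replicate 1 or 2 (FDR = 0.00738 and 0.00414). Without TGF-β replicate 2, TGF-β+2APB was 0.21 above TGF-β on the log2 scale, and without TGF-β replicate 1 the difference was -0.33. Dnajc3, a BiP co-chaperone, was split the same way by 2807 and 3984 counts with TGF-β, around 3204 and 3324 with DMSO and 3399 and 3397 with TGF-β+2APB, and was not called. Hsp90b1 shares 415 bases of exon (10.3%) with the pseudogene 1810014B01Rik on the opposite strand.

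The J-domain partners of BiP moved apart. Dnajb11, a co-chaperone that binds unfolded chains, stood at 4802 and 5014 under DMSO, 6672 and 6107 under TGF-β, and 5694 and 5753 under TGF-β+2APB, and was called higher with TGF-β only (log2 0.38 ± 0.08, FDR = 0.0115), with FDR = 0.0553 for TGF-β+2APB. The difference between the treated groups was itself not called (-0.16 ± 0.08, FDR = 0.213). Dnajb9, a co-chaperone that restrains IRE1, stood at 2771 and 2543 under DMSO, 2059 and 2158 under TGF-β, and 1944 and 1870 under TGF-β+2APB. Dnajb9 fell by 0.33 on the log2 scale with TGF-β (SE 0.08, FDR = 0.0203) and decreased by 0.48 with TGF-β+2APB (SE 0.08, FDR = 0.00412), with both treated groups below DMSO.

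Of the 3 small luminal proteins, 1 fell, 1 rose and 1 was not called. Sdf2l1, a stress-induced partner of Dnajb11's protein in the chaperone complex, stood at 1331 and 1328 under DMSO, 1116 and 989.9 under TGF-β, and 513 and 639 under TGF-β+2APB. The 3 groups did not overlap, and the steps were unequal. Sdf2l1 was -0.34 ± 0.13 with TGF-β (FDR = 0.0954), -1.21 ± 0.14 with TGF-β+2APB against DMSO (FDR = 0.000932), and -0.87 ± 0.14 with TGF-β+2APB against TGF-β (FDR = 0.0134). The change against DMSO was called in all 6 fits with a library left out, and the change against TGF-β in 3 of them. Without DMSO replicate 1, DMSO replicate 2 or TGF-β+2APB replicate 1 its log2 fold change was -0.87, -0.87 and -0.75, and its FDR was 0.0508, 0.0513 and 0.0597.

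Manf, a secreted and ER-resident protein that binds BiP, stood at 4711 and 4572 under DMSO, 7523 and 6661 under TGF-β, and 6185 and 6416 under TGF-β+2APB. It rose 1.53-fold with TGF-β (log2 0.61 ± 0.09, FDR = 0.00314) and 1.36-fold with TGF-β+2APB (log2 0.44 ± 0.09, FDR = 0.00733), and the difference between the treated groups was not called (-0.17 ± 0.09, FDR = 0.225). Creld2, a protein with isomerase activity, ran from 1868 to 2217 over the 6 libraries and was not called.

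The lectin chaperones, which bind glycoproteins during folding, were each lower with TGF-β+2APB in 1 comparison. Calr, which codes for calreticulin, the main calcium buffer of the ER, stood at 43194 and 42901 under DMSO, 56380 and 47484 under TGF-β, and 36498 and 39661 under TGF-β+2APB. The TGF-β libraries were the highest and the TGF-β+2APB libraries the lowest, with DMSO between. The changes against DMSO were 0.27 ± 0.10 (FDR = 0.0793) and -0.18 ± 0.10 (FDR = 0.192), and TGF-β+2APB was lower than TGF-β (-0.45 ± 0.10, FDR = 0.0349). That call held without either TGF-β library, but not without any of the other 4, where Calr was lower by a similar amount (-0.51 to -0.42, FDR from 0.103 to 0.196). Canx, the membrane-bound relative, ran from 39045 to 39739 with TGF-β+2APB and from 44512 to 46448 in the other 4 libraries, and was lower than with DMSO (-0.22 ± 0.06, FDR = 0.023).

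**Figure D4:**
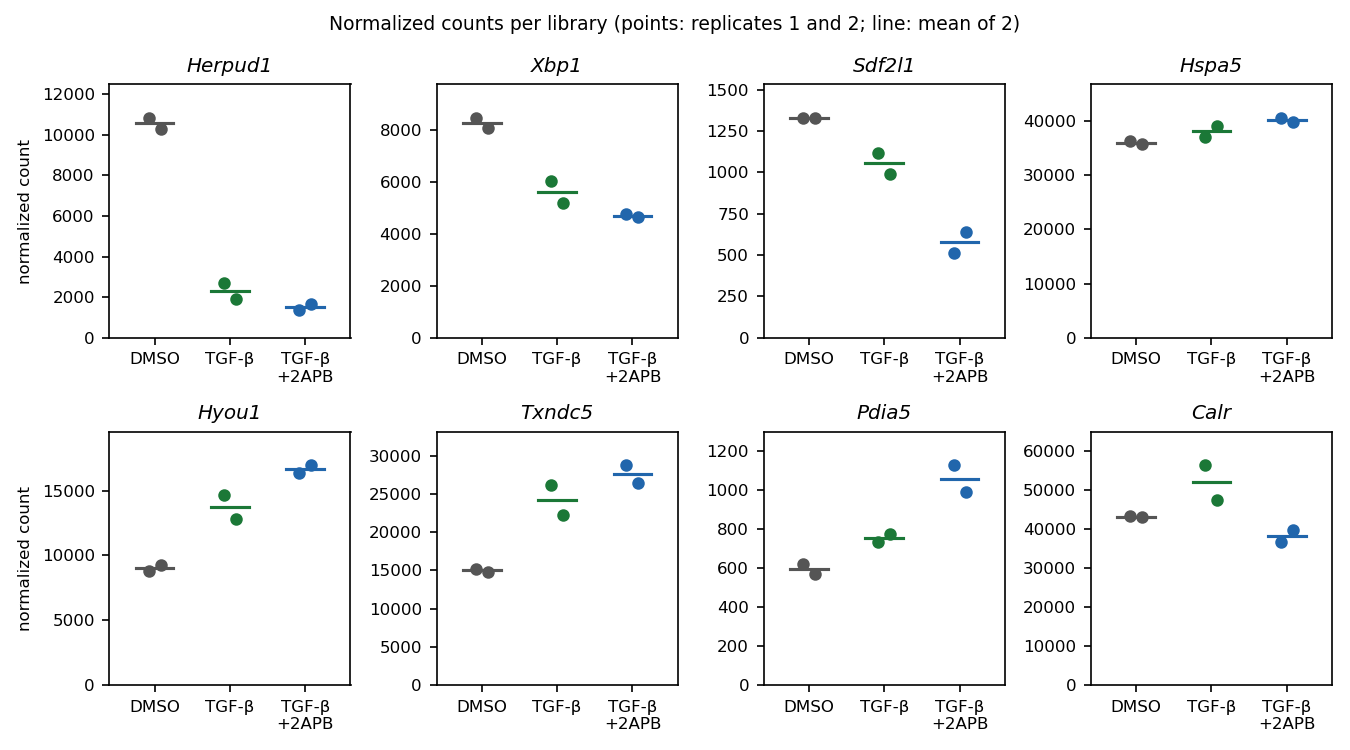
Normalized counts (vertical axis, from 0) of 8 genes in the 3 groups, with a point for each library and a line at the mean of 2. Herpud1, Xbp1 and Sdf2l1 stepped down from DMSO, Hyou1, Txndc5 and Pdia5 stepped up, Hspa5 was nearly level, and Calr was lowest with TGF-β+2APB.

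The disulfide isomerases and oxidases numbered 8, of which TGF-β raised 4 and lowered none, and TGF-β+2APB raised 3 and lowered 1, where 21.8% of all entries were higher and 19.7% lower in the first comparison, and 25.6% and 27.2% in the second. Txndc5, a thioredoxin-domain isomerase of the ER, stood at 15126 and 14842 under DMSO, 26194 and 22238 under TGF-β, and 28802 and 26444 under TGF-β+2APB. Every treated library was above both DMSO libraries. It rose 1.62-fold (log2 0.69 ± 0.10, FDR = 0.00349) and 1.84-fold (log2 0.88 ± 0.10, FDR = 0.000959), and these calls were kept with any 1 library left out. Txndc5 shares 224 bases of exon (4.99%) with Bmp6 on the opposite strand, and the strand setting of the counting is not known.

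Pdia5 was the 1 gene of the 36 called higher on addition of 2APB. It stood at 621 and 572 under DMSO, 734 and 776 under TGF-β, and 1130 and 988 under TGF-β+2APB, 3 groups without overlap. The change was 0.34 ± 0.11 with TGF-β (FDR = 0.0587), 0.83 ± 0.11 with TGF-β+2APB against DMSO (FDR = 0.00194), and 0.49 ± 0.11 against TGF-β (FDR = 0.038). The last call held only without TGF-β replicate 2 (FDR = 0.0296). In the other 5 fits with a library left out, its log2 fold change ran from 0.36 to 0.58 and its FDR from 0.062 to 0.246.

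The isomerases Pdia3 and Pdia6 were called higher with TGF-β only. Pdia3, which works with the lectin chaperones, stood at 62025 and 63185 under DMSO, 76436 and 76265 under TGF-β, and 67747 and 65260 under TGF-β+2APB (0.29 ± 0.06, FDR = 0.0128, and 0.09 ± 0.06, FDR = 0.269, against DMSO). Pdia6 stood at 17043 and 17474, 22183 and 20797, and 19260 and 20505 (0.32 ± 0.07, FDR = 0.0176, and 0.20 ± 0.07, FDR = 0.0589). Neither difference between the treated groups was called (-0.20 ± 0.06, FDR = 0.0751, and -0.11 ± 0.07, FDR = 0.334). Pdia4, a calcium-binding isomerase, stood at 13324 and 13103 under DMSO, 18248 and 15722 under TGF-β, and 16819 and 17222 under TGF-β+2APB. It was higher by 0.36 ± 0.09 and 0.37 ± 0.09 (FDR = 0.0228 and 0.0173), and the treated groups overlapped.

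P4hb codes for protein disulfide isomerase, which is also a subunit of the prolyl hydroxylase of collagen. P4hb stood at 76496 and 73701 under DMSO, 68576 and 56345 under TGF-β, and 57917 and 58975 under TGF-β+2APB. All treated libraries were below DMSO, and the change was -0.27 ± 0.10 with TGF-β (FDR = 0.0897) and -0.36 ± 0.10 with TGF-β+2APB (FDR = 0.0292). Txndc11 (2076 to 2476 over the 6 libraries) and Ero1lb (218 to 358), which reoxidizes the isomerases, were not called.

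In ER-associated degradation, Herpud1 had the largest change of all 36 genes in both comparisons with DMSO. It codes for a membrane protein that helps assemble the HRD1 ubiquitin ligase complex. Herpud1 stood at 10857 and 10276 under DMSO, 2698 and 1930 under TGF-β, and 1392 and 1649 under TGF-β+2APB, with no overlap between the groups. It fell by 2.19 on the log2 scale with TGF-β (SE 0.18, FDR = 0.0005) and by 2.80 with TGF-β+2APB (SE 0.18, FDR = 0.000148), and both calls held with any 1 library left out. The further difference of -0.61 ± 0.18 between TGF-β+2APB and TGF-β was not called (FDR = 0.0686), with FDR values from 0.0128 to 0.145 in the other settings. Herpud1 lies on chromosome 8 of GRCm38 at chr8:94386438-94395377 on the plus strand, with 10 exon blocks, and its promoter window was the only one of the 32 with an ERSE-II upstream of the start.

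The partners of Herpud1 in that complex moved less. Sel1l, the adaptor of HRD1, stood at 11687 and 11526 under DMSO, 10947 and 9944 under TGF-β, and 9077 and 9309 under TGF-β+2APB, and was lower with TGF-β+2APB (-0.34 ± 0.08, FDR = 0.0135). Syvn1, which codes for HRD1 itself, ran from 5617 to 6392 and was not called. Os9, a lectin that delivers glycoproteins to HRD1, stood at 20581 and 20307 under DMSO, 17609 and 14840 under TGF-β, and 13651 and 14657 under TGF-β+2APB, and fell in both comparisons (-0.33 ± 0.10, FDR = 0.0432, and -0.53 ± 0.10, FDR = 0.00666).

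Edem1 and Edem2, which act on the sugars of misfolded glycoproteins, were called in opposite directions, in different comparisons. Edem1 stood at 6203 and 6190 under DMSO, 7957 and 7060 under TGF-β, and 6335 and 6136 under TGF-β+2APB, and was higher with TGF-β (0.28 ± 0.08, FDR = 0.0444). Edem2 stood at 3363 and 3318, 3050 and 2698, and 2722 and 2675, and was lower with TGF-β+2APB (-0.31 ± 0.08, FDR = 0.0226). Derl2, a derlin of the retrotranslocation site, stood at 3546 and 3907 under DMSO, 3869 and 3791 under TGF-β, and 3021 and 3029 under TGF-β+2APB. Its TGF-β+2APB libraries were below all others (-0.30 ± 0.07, FDR = 0.0173, against DMSO, and -0.34 ± 0.07, FDR = 0.0315, against TGF-β). The call against TGF-β held without either TGF-β library, but not without any of the other 4, where the log2 fold change was -0.37 to -0.34 (FDR from 0.0868 to 0.182). Derl2 shares 231 bases of exon (2.87%) with Mis12 on the opposite strand. Derl1 ran from 6983 to 8522 and was not called, and Selk, a selenoprotein partner of the derlins, ran from 1969 to 2111 with DMSO and from 2409 to 2477 with TGF-β+2APB, and was higher there (0.26 ± 0.07, FDR = 0.0287).

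All 3 translocon genes had positive fold changes in both comparisons with DMSO. Ssr1, a subunit of the translocon-associated complex, stood at 12196 and 12316 under DMSO, 16596 and 16051 under TGF-β, and 17783 and 17005 under TGF-β+2APB, and rose in both (0.41 ± 0.07, FDR = 0.00498, and 0.51 ± 0.07, FDR = 0.00164). Sec61b, a small subunit of the channel, stood at 2017 and 1946, 2215 and 2179, and 2405 and 2490 in the same order, and was higher with TGF-β+2APB (0.30 ± 0.07, FDR = 0.0133). Sec61a1, the pore itself, ran from 25594 to 31328 over the 6 libraries, with a change of 0.17 ± 0.09 in both comparisons that was not called.

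Of the sensors, the IRE1 gene and that of its substrate moved in opposite directions. Ern1, which codes for IRE1, stood at 2832 and 2835 under DMSO, 3785 and 3424 under TGF-β, and 3548 and 3776 under TGF-β+2APB, and rose in both comparisons (0.35 ± 0.08, FDR = 0.0169, and 0.37 ± 0.08, FDR = 0.0102). Xbp1, whose mRNA IRE1 splices into that of an active transcription factor, stood at 8487 and 8078 under DMSO, 6037 and 5207 under TGF-β, and 4783 and 4637 under TGF-β+2APB. Xbp1 fell by 0.56 (SE 0.09, FDR = 0.00593) and by 0.81 (SE 0.09, FDR = 0.00103) on the log2 scale. Counts per gene do not tell spliced from unspliced Xbp1. Every treated library was below DMSO, and the TGF-β call was lost without DMSO replicate 1 (-0.52, FDR = 0.0596) and held without any other library.

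Atf6, the membrane-bound factor released by proteolysis, stood at 8994 and 8737 under DMSO, 7899 and 8068 under TGF-β, and 7598 and 7655 under TGF-β+2APB, and was lower with TGF-β+2APB (-0.22 ± 0.07, FDR = 0.0372). Eif2ak3, which codes for PERK, stood at 2893 and 3072, 3031 and 2949, and 3837 and 3319, and was not called (FDR = 0.0556 for TGF-β+2APB against DMSO). Ppp1r15a, which reverses the PERK signal, ran from 1529 to 1965 and was not called.

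Of the 9 tested genes with an ERSE in the promoter window, 1 was called with TGF-β against DMSO (Pdia6, higher), 1 with TGF-β+2APB against DMSO (Canx, lower) and 1 between the treated groups (Calr, lower), beside 41.5%, 52.8% and 17.5% of all entries. Their median log2 fold changes were 0.06, -0.16 and -0.09. Of the 22 genes with a window but no ERSE, 11, 16 and 3 were called, with medians of 0.08, 0.12 and -0.09. These counts are descriptions, and the difference between the 2 sets of genes was not tested. The 22 genes without an ERSE include Herpud1 and Dnajb11, with an ERSE-II, and Txndc5 and Txndc11, with the core TGACGTGG. Hyou1, Manf, Derl1, Sec61a1 and Atf6 had no window and are in neither set.

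Other genes of the ER were read from lists drawn up by function, whose counts stand beside the shares of all entries called, 21.8% higher and 19.7% lower for TGF-β against DMSO, 25.6% higher and 27.2% lower for TGF-β+2APB against DMSO, and 6.58% higher and 10.9% lower between the treated groups. Of 16 tested genes of stress signalling outside the 37, TGF-β raised 4 and lowered 3, TGF-β+2APB against DMSO raised 8 and lowered 4, and TGF-β+2APB against TGF-β raised 4 and lowered none. Atf3 and Ddit3, the latter coding for CHOP, a factor of the PERK branch, fell in both comparisons with DMSO (Ddit3 -0.94 ± 0.17, FDR = 0.00681, and -1.41 ± 0.17, FDR = 0.00112). Creb3l1, an ER-bound factor tied to secretory load and collagen, stood at 350 and 357 under DMSO, 1453 and 1341 under TGF-β, and 3182 and 2833 under TGF-β+2APB, and rose at each step (1.98, 3.09 and 1.11, FDR = 0.00011, 2.5e-05 and 0.00375). Trib3, a stress-induced pseudokinase, was -0.35 with TGF-β (FDR = 0.095) and 1.45 with TGF-β+2APB against TGF-β (FDR = 0.00469).

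Of 35 other folding factors, TGF-β raised 6 and lowered 4, TGF-β+2APB against DMSO raised 5 and lowered 5, and between the treated groups 1 was higher and 3 were lower with TGF-β+2APB. The 10 called in each comparison with DMSO were a smaller share than the 41.5% and 52.8% of all entries. Dnajc10, a J-domain reductase of the ER, stood at 34677 and 35370 under DMSO, 21076 and 22534 under TGF-β, and 14284 and 13961 under TGF-β+2APB, and fell at each step (-0.68, -1.31 and -0.63). Fkbp7, a prolyl isomerase, rose by 2.47 and 2.68. Of 16 genes of translocation and signal processing, 4, 8 and 2 were higher and none lower, with the signal peptidase subunit Spcs3 first (0.79 and 1.02 against DMSO). Of 17 other genes of ER-associated degradation, TGF-β raised 2 and lowered 1, and TGF-β+2APB against DMSO raised 2 and lowered 2. Between the treated groups, edgeR called 0 of these 17, with 3 at an unadjusted p under 0.05. DESeq2 without prior called 2, beside 27.7% of all entries.

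The list for the ER calcium store and its refilling, both acted on by 2APB, held 13 genes. TGF-β raised 5 and lowered 2, TGF-β+2APB against DMSO raised 4 and lowered 4, and between the treated groups 1 was higher and 4 were lower with TGF-β+2APB. The shares of all entries called in either direction were 41.5%, 52.8% and 17.5%. Itpr1, an IP3 receptor, stood at 1321 and 1388 under DMSO, 2602 and 2519 under TGF-β, and 4514 and 3987 under TGF-β+2APB, and rose at each step (0.92, 1.65 and 0.73). Itpr2, another of these receptors, was higher in both comparisons with DMSO (1.24 and 0.93) but lower with TGF-β+2APB than with TGF-β (-0.31 ± 0.07, FDR = 0.0301). The remaining receptor, Itpr3, named after its values were seen, was higher in both comparisons with DMSO (0.59 and 0.78) and not called between the treated groups (0.19 ± 0.08, FDR = 0.167). Stim1 and Stim2, the luminal calcium sensors, were lower with TGF-β+2APB than with TGF-β (-0.42 ± 0.10, FDR = 0.0374, and -0.36 ± 0.07, FDR = 0.0202). Orai3, a plasma membrane channel opened by these sensors, was lower in both comparisons with DMSO (-0.64 and -0.71).

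**Figure D5:**
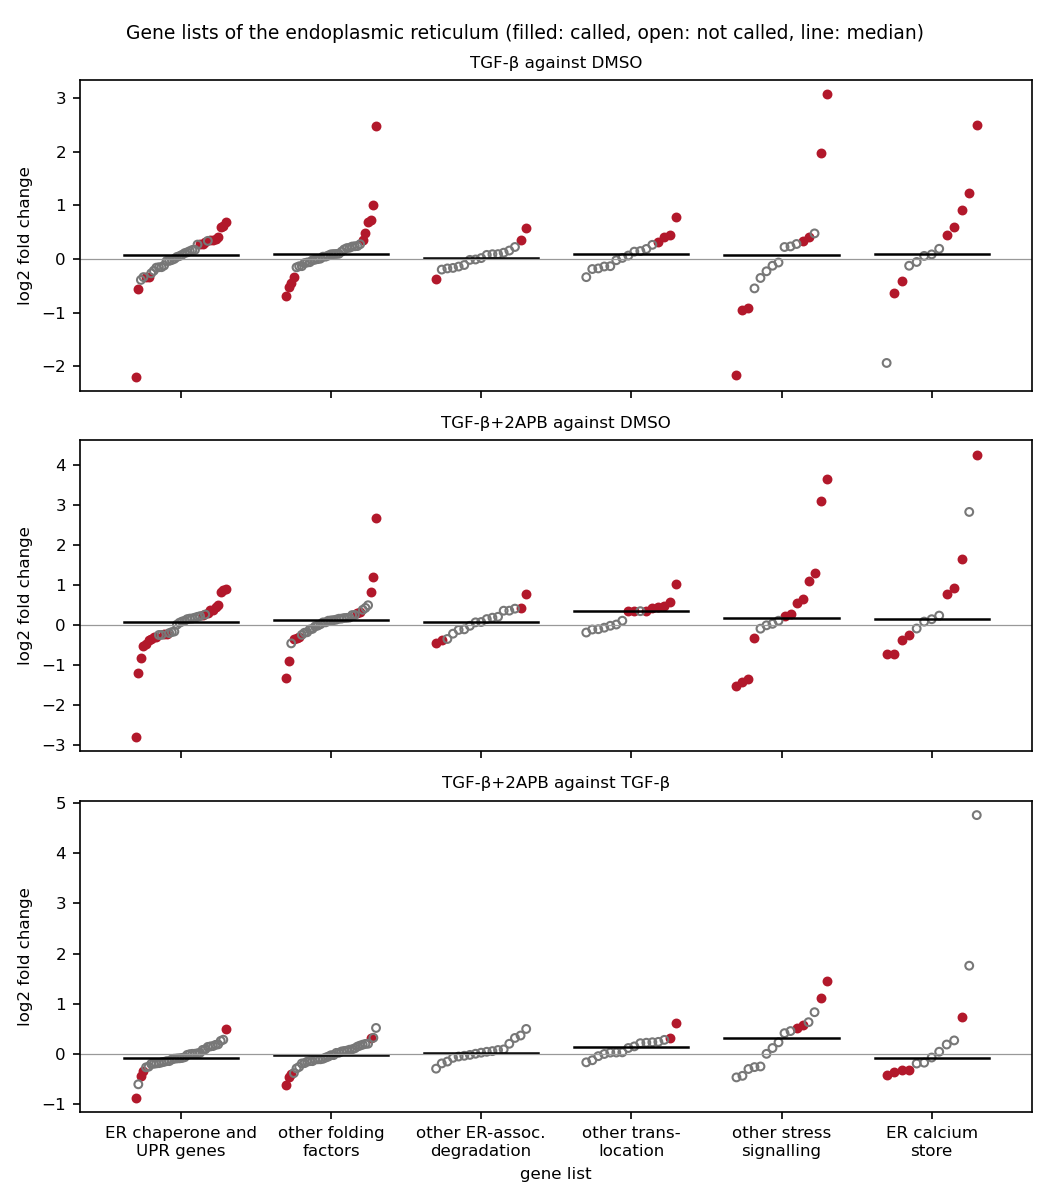
Log2 fold changes (vertical axis) of every tested gene of the 37 and of 5 further lists (horizontal axis) in the 3 comparisons, filled where called, open where not, with a line at the median. The ER chaperone and unfolded protein response genes included Herpud1 at -2.19 and -2.80 against DMSO, far below its other 35 tested genes.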

How the data were processed

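Expression was measured by single-end 50 bp RNA-seq of oligo-dT selected RNA in 6 libraries. Per the labels, the authors used FastQC 0.11.2, TopHat2 2.0.13 and DESeq2 1.6.1 with mm10. The study's text names featureCounts and the human build hg19, although the symbols are mouse. The deposited values are raw counts per gene, not normalized. Annotation, strand setting and treatment of reads with several alignments are not given in the sources used here. The study's text calls the 2 libraries of each treatment biological replicates. The p-values weigh a difference between groups against a spread estimated from these replicates over all 3 groups. Whether they were grown on separate days is not given in the sources used here.

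Counts were fitted in R 4.3.3 with edgeR 4.0.16 (limma 3.58.1): TMM factors, a mean of at least 20 normalized counts, 3 groups in 1 quasi-likelihood model without covariates, F-tests for 3 comparisons, and Benjamini-Hochberg FDR over all 13353 entries, called at 0.05 or less. Each SE was obtained from the log2 fold change and its F statistic. The fit was tested on simulated data. Alternatives were RLE or library size scaling, DESeq2 1.42.0 with and without prior, no filter, the replicate number as a block, 4 libraries only, halved counts, an FDR of 0.01, and each library left out. A block with exchanged TGF-β+2APB numbers was added after the data had been seen. All 37 genes are named. Of other lists, at most the 2 largest called rises and 2 largest called falls in a comparison are named. The members and lists were chosen with earlier results of these data known. Exon lengths came from GENCODE on GRCm38 and promoters from RefSeq. Tables and plots were made with Python 3.11.15 (pandas 2.3.3, matplotlib 3.10.9).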

Additional observations from a re-analysis of the deposited data

How the results depend on the processing

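Of 1728 values of single genes under the alternatives, 1456 kept direction and side of the threshold, 40 changed sign with no call before or after, 131 lost and 98 gained a call, and 3 changed sign and gained a call. These 3 were uncalled in the reported fit: Hsp90b1 for TGF-β+2APB against TGF-β (0.21 without TGF-β replicate 2, -0.33 without replicate 1), Dnajc3 for TGF-β against DMSO (-0.22 without TGF-β replicate 2, 0.29 without replicate 1) and Dnajc3 for TGF-β+2APB against TGF-β (-0.23 without TGF-β replicate 1, 0.28 without replicate 2). TGF-β against DMSO (14 called, 10 higher, 4 lower) gave 9 called and 2 lower with 4 libraries only, 6 called, 4 higher and 2 lower at an FDR of 0.01, and 7 lower with DESeq2, with or without prior. With 1 library left out it gave 4 to 21 called, 3 to 14 higher and 1 to 8 lower. TGF-β+2APB against DMSO (20, 9 and 11) gave 14 higher with DESeq2, 15 higher with 4 libraries only, and 10 called, 5 higher and 5 lower at an FDR of 0.01. Leaving out 1 library gave 8 to 30 called, 4 to 15 higher and 4 to 15 lower. TGF-β+2APB against TGF-β (4, 1 and 3) gave 7 called and 6 lower with library size scaling, 9 called, 2 higher and 7 lower with DESeq2, 0 higher without a filter, and 0 called, 0 higher and 0 lower with 4 libraries only or at an FDR of 0.01 in edgeR (5 and 11 genes at an unadjusted p under 0.05). Leaving out 1 library gave 0 to 17 called, 0 to 3 higher and 0 to 14 lower. The shares of all entries called moved as well. For TGF-β against DMSO, 41.5% became 36.1% with 4 libraries only, 25.2% at an FDR of 0.01 and 47.4% with DESeq2 without prior. For TGF-β+2APB against DMSO, 52.8% became 66.9%, 36.6% and 57.3% in the same order. Between the treated groups, 17.5% became 6.54%, 4.5% and 27.7%, with 20.1% under library size scaling and 10.6% without a filter. The cause of these shifts was not tested.

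Same-numbered replicates did not pair: their deviations correlated at 0.14, -0.43 and -0.26 over 13353 entries. The replicate block gave 12, 19 and 1 called in the 3 comparisons, and for the last 0 higher and 1 lower. Of all entries it called 35.5%, 47.6% and 10.1%. With exchanged numbers it gave 13, 19 and 5, beside 42.7%, 54.2% and 18.5% of all entries. With 2 libraries per group, calls of changes well under 1 log2 unit often depended on 1 library.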
